A study of Mus musculus with 6 samples.

Results

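The miRNAs named miR-297, miR-466, miR-467 and miR-669 are described here in extracellular vesicles of mouse brain. Mice carry most of their hairpins as a tandem array in 1 intron of Sfmbt2. Members were chosen by name alone. They are all entries of the authors' miRNA table whose first name starts with 1 of these 4 family names, detected or not, with an entry that joins several names counted once. That gave 54 entries of 1926. The entries hold 79 names, of which 38 are joined in 13 entries that the authors counted together.

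Cells shed small membrane sacs, extracellular vesicles, that carry small RNAs with them. The study prepared them from the brains of mice that had gone through status epilepticus, a prolonged seizure, and from matched controls, and the series carries the mark 24 hr in its title. The group of 3 libraries from the first mice is called SE here, and the 3 control libraries are called CON. The strain, sex and age of the mice, the agent that caused the seizures and the number of brains behind each library are not given in the sources used here. Nothing says that libraries of a group came from separate animals, so each p-value rests on the spread among these samples alone, and that spread may be technical.

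A miRNA is cut from a hairpin in a longer transcript. Each hairpin can give a mature strand from its 5′ arm (5p) and another from its 3′ arm (3p), and bases 2 to 8 of the mature strand, the seed, pair with target messenger RNAs. Sfmbt2 encodes a Polycomb-group protein and is imprinted, with expression from the paternal copy, in placenta and other extraembryonic tissue. Its miRNA array is found in mouse and rat, arose by repeated duplication of a short unit rich in simple repeats, and is best known for its part in the growth of the placenta.

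In the GENCODE annotation of GRCm38, 81 hairpins carry these 4 family names. 71 of them lie on the plus strand of chromosome 2 inside Sfmbt2 (chr2:10370510-10595253), the strand of the gene itself. All 71 sit between position 10466663 and position 10518279, a span of 51617 bases within 1 intron (chr2:10461473-10523944), which is intron 11 of 22 in the transcript that GENCODE marks as principal. By family, the intron holds 5 hairpins of miR-297, 23 of miR-466, 14 of miR-467 and 29 of miR-669. Some hairpins are copies that share a name, with 12 named Mir669a, 10 named Mir467a and 8 named Mir466b. The other 10 hairpins lie elsewhere, on chromosomes 3, 5, 7, 9, 10, 11 and 13. The family name is thus not the same as the locus. Of the 54 entries, 42 have hairpins in Sfmbt2 only, 6 have hairpins in other places only, and 6 have both. The submitters' processing notes name the build mm9, and the table holds names without coordinates, so these positions were joined by name and describe the annotation and not where reads were placed.

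Mature sequences of some members from outside the Sfmbt2 intron show simple repeats. 8 names of the 54 entries matched a mature sequence in the RefSeq table (GRCm38.p6), in 8 entries, 2 of which were detected. All 8 stand at positions outside Sfmbt2. No strand placed in the intron and no member with a mean of at least 10 RPM was among them. The detected ones are shown first, then those whose entries stood at 0, to compare the repeats. All are written 5′ to 3′ with the seed in capitals.
miR-466j: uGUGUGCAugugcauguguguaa
miR-466i-3p: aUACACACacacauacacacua
miR-466k: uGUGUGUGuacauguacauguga
miR-466q: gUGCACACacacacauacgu
miR-467f: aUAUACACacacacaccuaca
miR-467g: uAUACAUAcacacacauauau
miR-467h: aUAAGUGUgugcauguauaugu
miR-669n: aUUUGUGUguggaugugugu
These strands hold stretches in which U alternates with G, or A with C. The longest such stretch ran from 7 bases in miR-466j and miR-467h to 12 bases in miR-466q and miR-467f. UGUGUGUG or ACACACAC, each a dinucleotide repeated 4 times and searched on the mature strand only, stood in 6 of these 8 names, or 75.0%. This share covers names from outside the intron and not the array. Of the other 1671 mature names in the RefSeq table, 5 (0.299%) held either motif. In spite of the shared repeats the seeds of these 8 names differ from each other. Only the seed of miR-467h occurs under another mature name in that table, miR-668-5p. The table holds only these 8 of the 79 member names, so seeds shared with the other names could not be seen. Of the strands at 0, miR-466k (chr3:85467396-85467418), miR-466q (chr3:28419988-28420007), miR-669n (chr3:115979905-115979924) and miR-467h (chr9:115381898-115381919) lie on the plus strand, and miR-467f (chr11:69635419-69635439) and miR-467g (chr5:34732872-34732892) on the minus strand. miR-466j stands at GRCm38 chr10:60960802-60960824 on the plus strand, outside any protein-coding gene. The hairpin of miR-466i lies on the plus strand within Cdk13, a gene on the minus strand, and its 3p strand at chr13:17747552-17747573.

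The same motifs mark a few miRNAs of other names, and the 3 most abundant of these are shown to set the members beside them.
miR-672-5p: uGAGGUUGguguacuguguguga
miR-574-5p: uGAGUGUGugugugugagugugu
miR-1187: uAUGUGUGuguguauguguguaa
miR-574-5p holds 13 alternating bases of U and G, more than any member shown. It comes from chromosome 5 (chr5:64970328-64970350, plus strand), miR-1187 also from chromosome 5 (chr5:82798964-82798986, minus strand) and miR-672-5p from the X chromosome (chrX:104116228-104116250, minus strand).

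The libraries held 5482407 to 10845434 miRNA reads, with SE replicate 1 the deepest and CON replicate 2 the shallowest. Levels are in RPM, reads per 1000000 reads given to the listed miRNAs. Mature miRNAs are close in length, and RPM are not divided by length. A value of 0 allows up to 3 reads, which is 0.277 RPM in the deepest library and 0.547 RPM in the shallowest. These limits allow for counting error and nothing else. In every library 2 reads gave the lowest listed value, so a 0 can also hide 1 read. In the RPM table the names go with the SE columns and not with the CON columns, so each CON value below was first put back under its name, with the help of the base mean that the authors' deposited table gives each miRNA. All 687 CON rows found their place. The column labels SE and CON give the directions below. Neuronal miRNAs were abundant in these brain vesicles, with miR-124-3p at 1689 to 3082 RPM and the 5 listed neuronal miRNAs summing to 26695 to 30741 RPM in SE and 28902 to 33900 RPM in CON libraries. The 3 listed oligodendrocyte miRNAs summed to 253 to 332 RPM in SE and 309.5 to 452 RPM in CON libraries. The 3 listed astrocyte miRNAs, miR-143-3p, miR-24-3p and miR-29a-3p, summed to 10779 to 11470 RPM in SE and 12322 to 16216 RPM in CON. Every SE sum lay below every CON sum. Taken singly, only miR-29a-3p had all SE values below all CON values, as did 13.4% of the 290 miRNAs tested. The part of this in the results was not tested. Red cell miRNAs, 2 of 3 listed entries detected and miR-144-3p at 0, summed to 16.8 to 32.2 RPM in SE and 19.1 to 29.5 RPM in CON. Of these, miR-451a stood at 0.922 RPM in CON replicate 3 and at 0 in every other library. Nearly all of the red cell sum therefore came from the other detected entry. All 4 listed embryonic stem cell miRNAs of the miR-290 group were at 0 in every library.

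The members together were a small part of the vesicle miRNA. Their 54 entries summed to 630.2, 583 and 509 RPM in SE replicates 1, 2 and 3 and to 518, 507 and 589 RPM in CON replicates 1, 2 and 3. Of this level 18.4% came from miR-466i-5p, which has no hairpin in Sfmbt2. On the RPM scale the 2 groups overlapped, with SE replicate 3 among the lowest and SE replicate 1 the highest. The mean sum was 574 RPM ± 60.9 in SE and 538 RPM ± 44.4 in CON (SD, n = 3 each), a difference of 36.1 RPM that is smaller than either SD. This depended on the scaling. With median-of-ratios scaling, which divides by size factors instead of the total, the sums were 579, 610.5 and 572 in SE and 475, 508 and 557 in CON, so all 3 SE sums lay above all 3 CON sums. The difference was then 73.6, larger than the SD of 20.5 in SE and of 41.1 in CON. The share of all miRNAs without overlap was not counted under median-of-ratios scaling, so this is not shown to be particular to the members. That scaling moved the median log2 difference of all miRNAs tested from -0.07 to 0.03. As a share of all miRNA reads the sums were 0.0507% to 0.0630%. In bulk vesicles, fewer vesicles of a kind and less miRNA per vesicle cannot be told apart. For comparison, 52 entries of an imprinted cluster, the miR-379 to miR-410 group of the Dlk1-Dio3 locus, summed to 16945 RPM ± 1223 in SE and 17450 RPM ± 618 in CON (SD, n = 3 each). Values above 0 were found for 33 of the 54 members (61.1%), for 50 of those 52 entries (96.2%) and for 40.2% of the whole table.

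By family, miR-669 gave 50.6% of the summed level of all members, miR-467 25.9%, miR-466 23.3% and miR-297 0.226%. The miR-669 sum was 294 RPM ± 4.76 in SE and 268 RPM ± 4.85 in CON (SD, n = 3 each), from 289 to 299 RPM in SE and from 265 to 274 RPM in CON. These 2 ranges did not overlap, while with median-of-ratios scaling they did, at 266 to 331 in SE and 244 to 275 in CON. miR-669c-5p made up most of that sum, and among the 290 single miRNAs tested 1.38% had all SE values above all CON values. The miR-467 sum was 145 RPM ± 27.5 in SE and 142 RPM ± 18.2 in CON, and the miR-466 sum 133 RPM ± 38.6 in SE and 126 RPM ± 28.9 in CON (SD, n = 3 each). Both of these ranges overlapped between the groups under either scaling. The miR-297 sum ran from 0 to 3.07 RPM.

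**Figure D1:**
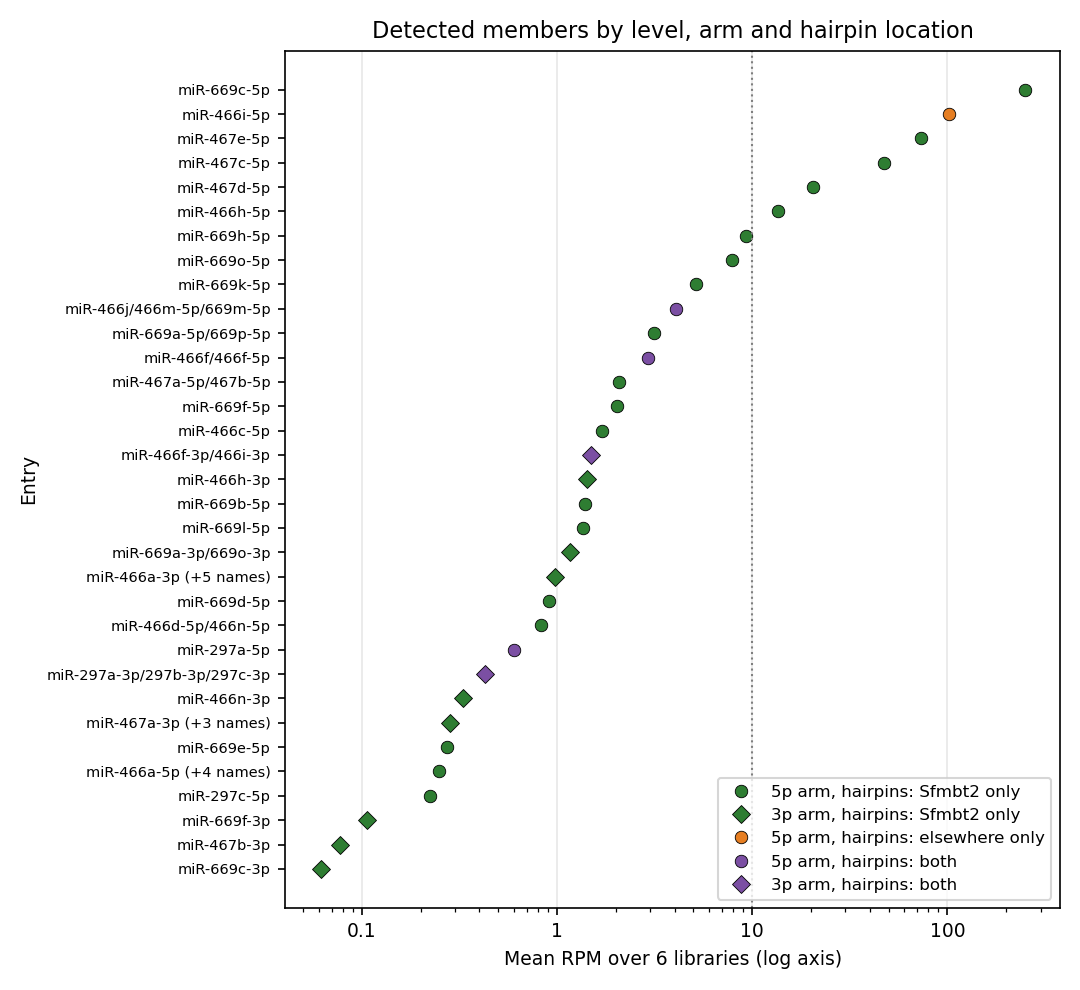
Mean RPM over the 6 libraries (log axis) of the 33 detected members, highest at the top. Circles are 5p and diamonds 3p entries, the colour gives where their GENCODE hairpins lie, and the dotted line marks the filter of 10 RPM. 6 entries, all 5p, lie above the filter, and the only detected entry with no hairpin in Sfmbt2 is the second from the top, miR-466i-5p at 102 RPM.

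A few 5p strands carried nearly all of the signal. The 5 most abundant entries held 88.5% of the summed level of all members and miR-669c-5p alone 44.7%. 5p entries summed to 568 RPM ± 59.4 in SE and 532 RPM ± 42.3 in CON, against 6.64 RPM ± 1.74 and 6.06 RPM ± 2.24 for 3p entries (SD, n = 3 each). 5p strands therefore made up 98.9% of the summed level of the 2 arms, against 87.3% in the Dlk1-Dio3 entries, a difference that was not tested. Of 25 entries with a 5p name, 23 were detected, of 20 with a 3p name 10, and of 9 with no arm in the name 0. The 3p entry with the highest level was miR-466f-3p/466i-3p, whose miR-466i-3p strand is printed above, at 1.49 RPM. Where both arms have an entry of their own, the 5p strand was the higher one in each of the 6 pairs. miR-669c-5p had 10274 reads over the 6 libraries and miR-669c-3p had 4. miR-466h-5p had 568 reads and miR-466h-3p had 63, a ratio of 9.47 in mean RPM. miR-669f-5p had 82 reads and miR-669f-3p had 4. For miR-669h, miR-669k and miR-669e the 3p strand had 0 reads.

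miR-669c-5p was the most abundant member and stood 81st of 1926 entries by mean RPM. Its hairpin lies at GRCm38 chr2:10509296-10509404 in the Sfmbt2 intron. It stood at 256, 265 and 265 RPM in SE replicates 1, 2 and 3 and at 232, 240.4 and 232 RPM in CON replicates 1, 2 and 3. All 3 SE libraries lay above all 3 CON libraries, by a narrow margin. The means were 262 RPM ± 5.33 and 235 RPM ± 4.80 (SD, n = 3 each), 1.12-fold. It is 1 of 4 miRNAs of the 290 tested (1.38%) whose SE values all lay above the CON values, with miR-3093-3p, miR-872-5p and miR-1198-5p, a group of names chosen after their values were seen. Replicates of miR-669c-5p differed by 2.03% (coefficient of variation) in SE and 2.04% in CON, while counting alone gives about 2.26% and 2.70%. Only 1 of the 290 miRNAs tested had a smaller residual SD. limma-trend, which borrows spread from all miRNAs, gave a log2 difference of 0.16 on the log2(RPM + 1) scale, with a standard error of 0.19, a 95% interval from -0.24 to 0.56 and an adjusted p of 0.871. The difference did not pass. With median-of-ratios scaling the groups of miR-669c-5p overlapped, since SE replicate 1 was at 235 and CON replicate 2 at 241, and the log2 difference was 0.26.

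**Figure D2:**
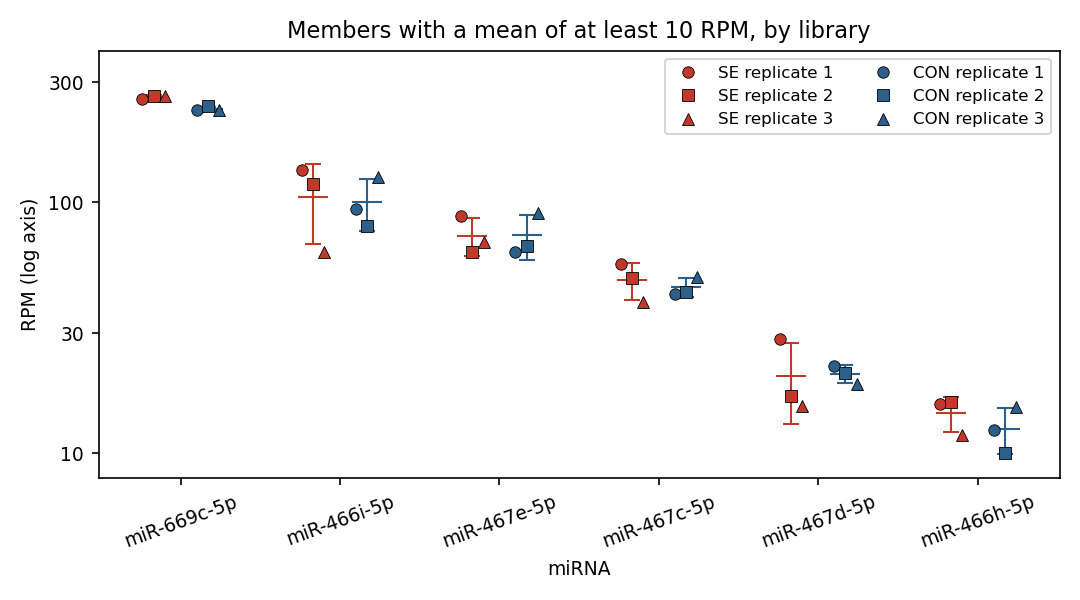
RPM (log axis) of the 6 members with a mean of at least 10 RPM in each library, SE in red and CON in blue, with 1 marker shape per replicate, a bar at the group mean and whiskers of 1 SD (n = 3). Only miR-669c-5p has groups that do not overlap, and miR-466i-5p spreads from 63.2 to 134 RPM within SE.

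miR-466i-5p came second and has no annotated hairpin in the intron. Its only annotated hairpin lies on chromosome 13 (GRCm38 chr13:17747473-17747593, plus strand), antisense to Cdk13, and where its reads were placed is not known. The values were 134, 118 and 63.2 RPM in SE and 93.7, 80.1 and 125 RPM in CON replicates 1, 2 and 3. SE replicate 3 was the lowest and SE replicate 1 the highest of all 6, so the CON values lay within the SE range. That is a 2.11-fold range within SE, and a coefficient of variation of 35.2%, where counting gives about 3.75%. In CON it was 23.3%, against 4.21% from counting. The log2 difference was 0.03 with a standard error of 0.27 and a 95% interval from -0.54 to 0.59. Without SE replicate 3 the log2 difference was 0.35, and without SE replicate 1 it was -0.18. Set against miR-669c-5p of the same library, miR-466i-5p ran from 23.8% in SE replicate 3 to 54.1% in CON replicate 3.

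Next came 3 strands of the miR-467 family, which lie in the Sfmbt2 intron. miR-467e-5p (hairpin at chr2:10505721-10505807) was at 87.7, 63.5 and 69.1 RPM in SE and 63.5, 66.9 and 90.5 RPM in CON. miR-467c-5p (chr2:10473931-10474027) stood at 56.6, 50.03 and 40.1 RPM in SE and 43.1, 43.8 and 50.4 RPM in CON. miR-467d-5p (chr2:10507630-10507714) was at 28.6, 16.95 and 15.4 RPM in SE and 22.3, 20.8 and 18.9 RPM in CON. The groups overlapped for each of the 3, and SE replicate 1 was the highest SE library each time. Their log2 differences were 0.00, 0.08 and -0.07, with 95% intervals from -0.47 to 0.47, from -0.38 to 0.55 and from -0.63 to 0.49. With median-of-ratios scaling all 3 were positive, at 0.10, 0.19 and 0.03. Without SE replicate 1 they were -0.13, -0.03 and -0.33.

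miR-466h-5p, which has been linked to cell death in glucose-starved cell cultures, was the last member over the filter. Its annotated hairpin lies in the intron (chr2:10514891-10514971), and it reached 15.7, 15.96 and 11.8 RPM in SE and 12.3, 10.03 and 15.2 RPM in CON libraries. These ranges overlapped, and the log2 difference was 0.20 with a 95% interval from -0.37 to 0.77. In the order of levels, miR-669c-5p stood clear of miR-466i-5p in every library. miR-466i-5p and miR-467e-5p changed places in SE replicate 3, while miR-467c-5p, miR-467d-5p and miR-466h-5p kept this order in each library. Of the 6, SE replicate 1 was the highest SE library for 4 and SE replicate 3 the lowest for 4, and CON replicate 3 was the highest CON library for 4. The part of these libraries in the differences was not tested.

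In the comparison of SE with CON, 0 of the 6 members over the filter passed by limma-trend, at an adjusted p under 0.05 over all 290 miRNAs tested. Over all 290 the test called 3 (1.03%), of which 1 was higher in SE (0.345%, miR-872-5p) and 2 were lower (0.69%, miR-155-5p and miR-21a-5p), none of them a member. The adjusted p of the 6 members ran from 0.871 to 0.999. At an unadjusted p under 0.05 there were 0 of the 6 members, against 9.31% of all 290. Of the 6 log2 differences 4 were positive and 2 negative, with a median of 0.05 beside -0.07 over all 290. The 1 member whose groups did not overlap compares with 14.8% of all 290 in either direction. The 6 intervals together reach from -0.63 to 0.77 on the log2 scale, so equal levels are not shown.

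**Figure D3:**
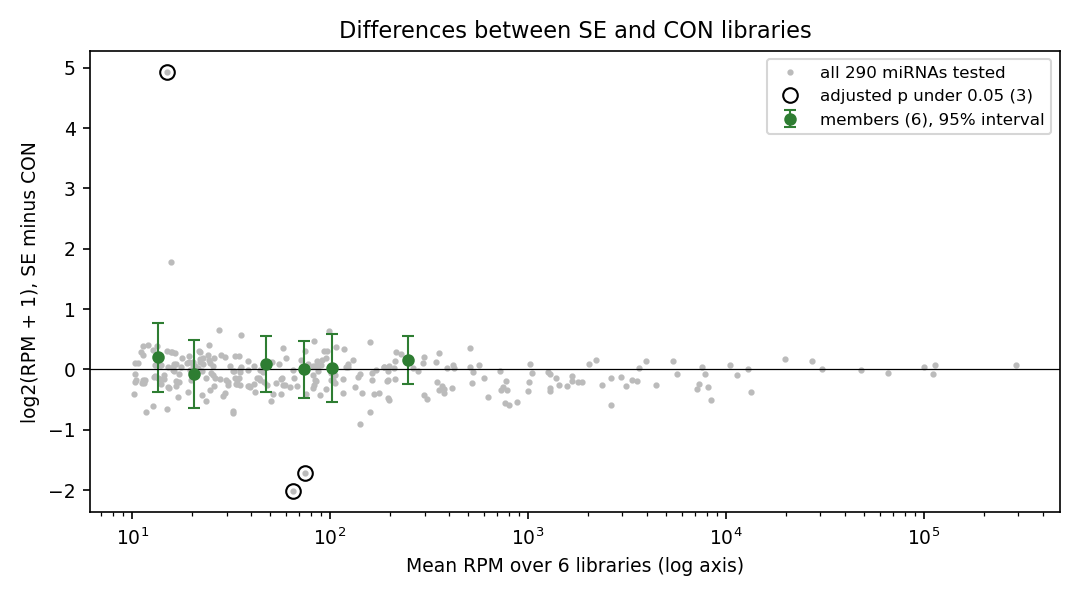
Difference in log2(RPM + 1), SE minus CON, against mean RPM (log axis) for the 290 miRNAs tested, with the 6 members in green and their 95% intervals from limma-trend. All 6 intervals include 0, and the 3 circled miRNAs that passed are no members.

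A lower filter of 1 RPM brought 20 members into the test, and 0 passed by limma-trend, beside 0.717% of the 558 miRNAs then tested. At an unadjusted p under 0.05 there were also 0. Of the 20 log2 differences 9 were positive and 11 negative, with a median of -0.01 beside -0.04 over all 558. The authors' deposited table lists the 33 detected members, 13 with a positive and 20 with a negative log2 fold change, where positive stands for CON. It calls 0 of them at an adjusted p under 0.05, beside 1.04% of its 772 rows with a p-value. At an unadjusted p under 0.05 the authors' deposited table holds 1 member, miR-669c-5p, with a log2 fold change of -0.27 (standard error 0.13), a p of 0.0471 and an adjusted p of 0.965. Next by p in the authors' deposited table is miR-466n-3p, at 4.69 (standard error 3.71) with an adjusted p of 0.975.

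Below the filter lay 14 members with means of 1.17 to 9.28 RPM, 11 of them 5p and 3 of them 3p. 10 of the 14 had reads in all 6 libraries. miR-669h-5p ran from 8.22 to 10.9 RPM in SE and from 7.48 to 11.3 RPM in CON. miR-669o-5p ran from 5.83 to 8.98 and from 5.54 to 10.6 RPM, and miR-669k-5p from 4.49 to 5.38 and from 4.29 to 6.92 RPM. SE and CON values overlapped for all 3. The entry miR-466j/466m-5p/669m-5p, whose miR-466j strand is printed above, lay at 3.59 to 4.61 RPM in SE and 2.92 to 4.47 RPM in CON. miR-669a-5p/669p-5p, which joins a strand known to restrain the muscle factor MyoD with a strand of another name, lay at 2.33 to 3.44 and 3.07 to 3.93 RPM.

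Other entries of this range were missing from single libraries. miR-466f/466f-5p was at 0 in SE replicate 1, the deepest library, and the other 5 libraries held 2.77 to 4.65 RPM. miR-466c-5p was at 0 in SE replicate 2 and in CON replicate 2, while the other 4 libraries held 1.75 to 3.23 RPM. miR-467a-5p/467b-5p ranged from 0.598 to 3.99 RPM in SE and from 0.912 to 1.998 RPM in CON. miR-669f-5p ranged from 1.196 to 2.66 and from 1.82 to 2.61 RPM, and miR-466f-3p/466i-3p from 1.29 to 1.79 and from 1.09 to 1.998 RPM. Of these 5 entries none had SE values that all lay on 1 side of the CON values.

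Another 13 detected members had means under 1 RPM, and 0 of them had reads in all 6 libraries. 3 were seen in SE libraries alone: miR-297c-5p with 13 reads, miR-466a-5p and the 4 names joined to it with 10, and miR-669c-3p with 4. 3 others were seen in CON libraries alone: miR-466n-3p with 12 reads, miR-669e-5p with 9 and miR-467b-3p with 3. Over the whole table, 88 of the 775 detected miRNAs had reads in SE alone, and the number in CON alone was not counted. The SE libraries together held 23552211 miRNA reads and the CON libraries 17581171, and the part of this depth was not tested. Set against 3 reads in all libraries of the group at 0, the ratio of SE to CON was 3.23 for miR-297c-5p. For miR-466n-3p the ratio of CON to SE was 5.36. These ratios take each 0 as no reads and leave out the counting error of the 13 and 12 reads. SE replicate 1 held 11 of the 13 reads of miR-297c-5p, and without it the ratio to those 3 reads was 0.922, so the higher level rests on that library. For miR-466n-3p the ratio without CON replicate 3 was 3.54, from 5 reads. The 10 reads of the miR-466a-5p entry all came from SE replicate 3 and the 9 reads of miR-669e-5p all from CON replicate 2. In all, 30 members were seen in SE and 30 in CON libraries, 27 of them in both.

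The remaining 21 members were at 0 in all 6 libraries, which together allow up to 0.0729 RPM where each 0 stands for no reads. 1 hidden read in each library, 6 in all, would be 0.146 RPM. They are 1 entry of miR-297, 6 of miR-466, 3 of miR-467 and 11 of miR-669. The only 5p entries among them were miR-297b-5p and miR-466k/466l-5p. miR-466l is known for protecting the messenger RNA of interleukin-10 from decay in macrophages, and both its arms were at 0. Of the 6 entries with no hairpin in Sfmbt2, 5 were at 0 (miR-466q, miR-467f, miR-467g, miR-467h and miR-669n), and miR-466i-5p was the exception. Entries with hairpins in Sfmbt2 only summed to 460 RPM ± 26.8 in SE and 428 RPM ± 20.1 in CON (SD, n = 3 each), which is 79.9% of the level of all 54. These sums ran from 438 to 490.1 RPM in SE and from 414 to 451 RPM in CON, so they overlapped. With median-of-ratios scaling they did not, at 450.1 to 492 in SE and 379.6 to 427 in CON. That scaling was applied to this sum after the data were seen. The share of all miRNAs without overlap under it was not counted.

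**Figure D4:**
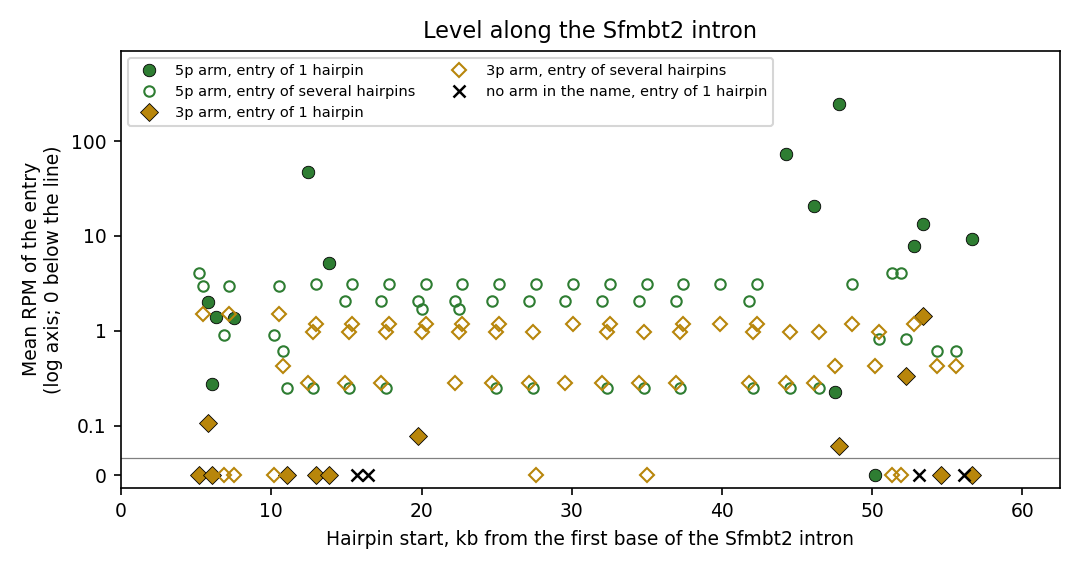
Mean RPM of an entry (log axis, with 0 below the grey line) against the start of its hairpin in kb from the first base of the Sfmbt2 intron. Filled symbols and crosses are entries of 1 hairpin, and open symbols are entries with several hairpins, drawn at each hairpin of the intron with the level of the whole entry, so they repeat 1 value. The 5 entries over 10 RPM all have 1 hairpin, at 12.5, 44.2, 46.2, 47.8 and 53.4 kb, and between 15.7 and 44.2 kb no entry is above 3.14 RPM.

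Within the intron, the summed and the highest levels differed between entries with 1 hairpin and entries that join copies. The 30 entries with 1 hairpin, all in Sfmbt2, summed to 448 RPM ± 26.2 in SE and 418 RPM ± 18.5 in CON (SD, n = 3 each), and reached 249 RPM. The 12 entries with 2 to 14 hairpins in Sfmbt2 summed to 12.4 RPM ± 1.23 in SE and 10.2 RPM ± 3.07 in CON and reached 3.14 RPM. Among detected entries the medians were closer, at 1.73 RPM over 18 and 0.980 RPM over 9. miR-669a-5p/669p-5p with 14 hairpins and miR-467a-5p/467b-5p with 11 stood at 3.14 and 2.07 RPM, while miR-669c-5p with 1 hairpin stood at 249 RPM. The sources used here do not say how reads that fit several places were counted, and the part of that step in these levels was not tested. 4 of the 5 entries of the intron over the filter start 44.2 to 53.4 kb into it, and miR-467c-5p starts at 12.5 kb.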

How the data were processed

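The authors' deposited RPM table gives RPM of 1926 miRNA entries in 6 libraries (QIAseq miRNA kit, per the labels' protocols). Aligner, counter and miRNA annotation are not given in the sources used here. Per the submitters' processing notes, the build was mm9 and DESeq2 was used, with no role stated. The authors' deposited table of fold changes gives, per the file headers, a base mean of normalized counts (a signal value), a log2 fold change, its standard error, a test score, p-values and adjusted p-values for 775 miRNAs.

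With the lowest value of a column taken as 2 reads, all RPM values came out as whole reads within 0.01. CON rows were matched to names through the part of each base mean that the SE reads leave over, within a relative tolerance of 1e-05. The largest difference was 3.72e-09. 597 names had 1 candidate row, 90 had several with identical reads, and 665 rows changed name. After exchanging the size factors of the CON columns, at most 3 of 312 totals matched. For 316 of 317 miRNAs with a base mean of at least 50, the deposited log2 fold change lay within 0.05 of CON over SE.

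limma-trend (limma 3.58.1, R 4.3.3) was fitted to log2(RPM + 1) by group, for entries with a mean of at least 10 RPM, two-sided, with Benjamini-Hochberg adjustment and a threshold of 0.05. A fold change on this scale understates the change of low entries. The fit was tested on simulated data. Hairpins came from GENCODE vM21 (GRCm38), by name, and sequences from RefSeq (GRCm38.p6). Named members are all 6 over the filter, the next 10 by level, the members seen in 1 group only and the 2 with the lowest p in the deposited table. Other members are named where a count or pair needed it, after their values were seen. Members, lists and tests were chosen with earlier results of these data known. Python 3.11.15, pandas 2.3.3 and matplotlib 3.10.9 were used.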

Additional observations from a re-analysis of the deposited data

How the results depend on the processing

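The count of members called stayed at 0 under pseudocounts of 0.5 and 5 RPM and under filters of 1 and 50 RPM and none. It also stayed at 0 with median-of-ratios scaling, limma without trend and each library left out. With the CON rows as deposited it was 0 too. As 665 rows changed name in the matching, that setting sets SE values beside CON values of other miRNAs and cannot show stability. The count of all miRNAs called was 0 with the CON rows under the deposited names, and 3 to 6 with 1 library left out, with 6 without CON replicate 2 and 5 without CON replicate 3. The cause was not tested. With the replicate number as a block, 3 miRNAs and 0 members were called. Same-numbered SE and CON libraries had correlations of -0.42, -0.25 and 0.04 in their deviations from the group means. These gave no sign of pairing. With 3 libraries in a group they cannot show whether same-numbered libraries were handled together. The summed level of the members was 312 RPM in SE and 303 RPM in CON without miR-669c-5p, 606 RPM in CON under the deposited names, and 546 to 607 RPM in SE and 513 to 554 RPM in CON with 1 library left out. With median-of-ratios scaling it was 587 in SE and 514 in CON, and the groups no longer overlapped. The share of all miRNAs without overlap was not counted under this scaling. The family sums and the sum of members with hairpins in Sfmbt2 only were scaled in this way after the data were seen. The ratios without 1 library, for members seen in 1 group only, were also added then. With median-of-ratios scaling the miR-669 sum was 303 in SE and 256 in CON. Members with reads in all 3 libraries of a group numbered 18 in SE and 19 in CON. Median-of-ratios scaling moved the median log2 difference of all miRNAs tested from -0.07 to 0.03. The sign of the log2 difference turned under 1 of 15 alternatives for miR-669c-5p, the CON rows under the deposited names. For miR-466i-5p it turned under 5 of 15, that setting among them. Depth limits the 13 members under 1 RPM and the 21 at 0.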

Other observations

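5 miRNAs of other names held UGUGUGUG or ACACACAC in the mature strand. miR-672-5p was at 857, 1301 and 1017 RPM in SE and 1182, 909 and 869.8 RPM in CON replicates 1, 2 and 3, and miR-574-5p at 197, 248 and 164 RPM in SE and 216, 175 and 186 RPM in CON. miR-1187 was at 21.9, 23.8 and 15.4 RPM in SE and 17.9, 14.6 and 23.4 RPM in CON. SE and CON values overlapped for these 3, and by limma their log2 differences of 0.09, 0.06 and 0.12 had adjusted p of 0.910, 0.952 and 0.910. miR-3082-5p also overlapped, at 11.2 to 14.6 RPM in SE and 10.03 to 25.6 RPM in CON. miR-32-3p, under the filter and so not tested, stood at 7.47, 6.15 and 5.53 RPM in SE and 14.8, 8.39 and 11.2 RPM in CON, with every SE library below every CON library. Among the 290 miRNAs tested, 13.4% were separated in that direction.

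Of the 289 other miRNAs tested, miR-872-5p had the pattern most like miR-669c-5p over the 6 libraries, with Pearson's r of 0.96 and Spearman's rho of 0.76 on log2(RPM + 1), followed by miR-135a-2-3p (r 0.76) and miR-1198-5p (r 0.72). miR-872-5p had no listed reads in any CON library, so its r mainly reflects the step between SE and CON. Shared variation within the groups was not tested. The points share libraries and depth, and the first places of 289 are high by selection. The other 5 members over the filter had r from -0.32 to 0.24 with miR-669c-5p.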
